A study of Homo sapiens with 5 samples.

Results

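The 10 genes described here encode enzymes of serine synthesis (PHGDH, PSAT1, PSPH), the enzymes that split serine into glycine and a carbon unit (SHMT1, SHMT2), and the folate enzymes that carry that unit onwards (MTHFD1, MTHFD2, MTHFD1L, MTHFD2L, ALDH1L2). They were taken by symbol from a table of 57221 rows of read counts, and each stood on its own row. The family was picked because PSAT1 had among the strongest falls with UNC1999. PSAT1 values are therefore given as a description without a test, and the other members share that comparison with the choice.

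RNA was sequenced from NK92MI, an established human line of natural killer (NK) cells with an introduced IL2 gene, which grows without added interleukin 2. The medium held added folic acid and was the same for all libraries. Culture lasted 48 h, either with the solvent DMSO (2 libraries) or with 10 µM of UNC1999 (3 libraries), an inhibitor of EZH2 and EZH1, the histone H3 lysine 27 methyltransferases of polycomb repressive complex 2. The labels do not state whether libraries of a group are separate cultures. The p-values thus cover only the spread among these libraries, and that spread may be technical.

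Serine is made from the glycolytic intermediate 3-phosphoglycerate in consecutive steps: PHGDH oxidizes it, PSAT1 transfers an amino group from glutamate, and PSPH removes the phosphate. SHMT1 in the cytosol and SHMT2 in mitochondria then move a carbon unit from serine to tetrahydrofolate. MTHFD2 or MTHFD2L oxidizes the unit in mitochondria and MTHFD1L releases it as formate, while MTHFD1 recharges folate with formate in the cytosol for the synthesis of purines and thymidylate. Dividing lymphocytes are known to draw on this route.

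Between 8442908 and 8748106 reads per library were assigned to genes. UNC1999 replicate 2 stood apart. Its chi-square statistic per degree of freedom was 7.47 against UNC1999 replicate 1 and 8.77 against UNC1999 replicate 3, compared with 1.81 between the latter pair and 3.14 between the DMSO libraries. Each member is therefore also given without it. NK markers were abundant in sum, most of it NKG7, GZMB, GZMA and PRF1. The sum over 12 genes was 5661 to 5905 CPM (counts scaled to library size by TMM) in DMSO and 5428 to 5807 in UNC1999. Of 10 NK markers tested 1 was called, beside 35.2% of all tested genes. This was CD7, which averaged 49.9 ± 2.90 CPM under DMSO against 89.1 ± 18.4 under UNC1999 (edgeR adjusted p = 7.38e-06). With the offsets described below, CD7 (0.68 in log2) and PRF1 (0.25) were called higher and KLRD1 (-0.70) and GZMA (-0.30) lower. The last 3 are named after their values were seen. NCR3 was listed at 0 throughout. KLRK1 had 3 to 11 counts per library and was not tested. NCR1 averaged 3.14 ± 0.935 CPM under DMSO against 2.69 ± 0.540 under UNC1999 and was not called. KLRK1 and NCR1 are also named after their values were seen. Whether reads of markers listed at 0 were left unassigned in counting was not tested. Of 6 T cell markers, CD3E was abundant (662.1 ± 21.3 against 617.3 ± 45.3 CPM, not called, but called higher with offsets) and the other 5 had under 10 counts in any library. Of B cell markers, PAX5 averaged 24.0 ± 1.42 CPM under DMSO against 20.2 ± 3.54 under UNC1999, and MS4A1 was listed at 0 throughout. The 5 myeloid markers summed to 43.2 to 47.3 and 34.9 to 43.0 CPM, most of it ITGAM, with LYZ at 0. Neither PAX5 nor ITGAM was called. The part of these markers in the results was not tested. Here and below, ± after a mean level is the SD over the 2 DMSO or 3 UNC1999 libraries, and ± after a log2 fold change is its SE. EZH2, the drug target, averaged 105.0 ± 0.977 CPM under DMSO against 120.3 ± 13.3 under UNC1999 (edgeR adjusted p = 0.178). With offsets for GC content and length, described below, EZH2 was called higher (0.29 in log2, edgeR adjusted p = 0.0019), as it was without scaling factors (0.30, edgeR adjusted p = 0.0351). EZH1 averaged 39.1 ± 1.37 against 31.6 ± 2.08 CPM (edgeR adjusted p = 0.0479). The EZH1 call was kept in 1 of 12 alternative analyses, that without UNC1999 replicate 2, and with offsets its change was -0.02 in log2 (edgeR adjusted p = 0.919).

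Of the 10 members, 8 had enough reads to be tested, and PHGDH and ALDH1L2 did not. Per kilobase of transcript, SHMT2 had the highest level in DMSO, at 218.9 ± 7.88 CPM per kb (SD, n = 2). It was followed by MTHFD1 (129.4 ± 10.6), MTHFD2 (85.1 ± 1.76) and MTHFD1L (41.5 ± 0.173). SHMT1 (22.2 ± 0.192) and PSAT1 (21.0 ± 1.07) came next and differed by 1.26 CPM per kb, about the sum of their SDs. PSPH (14.4 ± 0.954) and MTHFD2L (2.67 ± 0.268) were lower. PHGDH and ALDH1L2 were near 0. In UNC1999 the order was the same down to SHMT1, and PSPH (8.31 ± 1.95) and PSAT1 (8.04 ± 1.58, CPM per kb, SD, n = 3) no longer differed beyond their spread. The mitochondrial enzymes SHMT2 and MTHFD2 stood above their paralogs SHMT1 and MTHFD2L in every library. Lengths are those of 1 principal transcript per gene in GENCODE 29, which may not be the transcript these cells make.

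**Figure D1:**
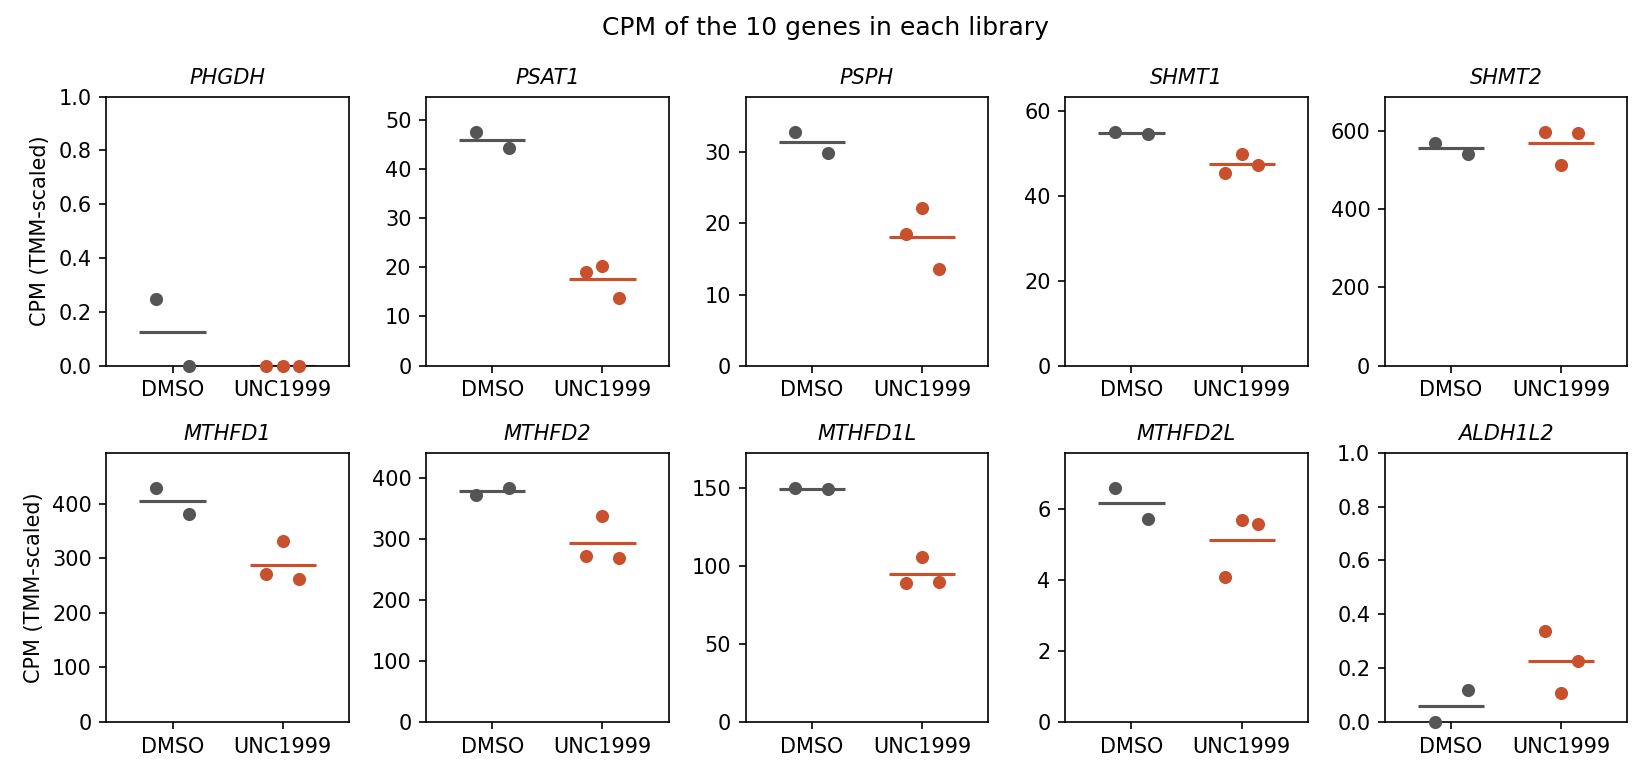
CPM of each of the 10 genes (vertical axis, TMM-scaled, starting at 0 in each panel) in the 2 DMSO libraries and the 3 UNC1999 libraries, with a line at each group's mean. PHGDH and ALDH1L2 lie near 0 in both groups, PSAT1, PSPH, MTHFD1, MTHFD2 and MTHFD1L are below both DMSO libraries in each UNC1999 library, and SHMT2 overlaps.

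Of the 9 members other than PSAT1, 7 had enough reads to be tested. With UNC1999, 4 were lower, 0 were higher and 3 were not called (edgeR, adjusted p under 0.05). Of all 13075 tested genes 19.5% were called lower and 15.7% higher (35.2% in either direction); because the family was chosen from this same comparison, nothing is read from the members' count against those shares. The same 4 lower and 0 higher were found at an unadjusted p under 0.05, and the counts were 4 and 0 with the DESeq2 Wald test. In 6 of the 7, all UNC1999 libraries lay below both DMSO libraries, a separation shown by 30.4% of all tested genes (24.2% showed the opposite one). In bulk RNA, fewer cells expressing a gene and less RNA per cell cannot be told apart.

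PHGDH, which opens the serine pathway, was all but undetected. It had 2 counts and 0 counts in the DMSO libraries and 0 counts in each of the 3 UNC1999 libraries. A count of 0 allows up to 3 counts, which is 0.327 to 0.372 CPM over the 5 libraries, counting error only. No fold change can be given, since both groups lie under that limit. No gene of GENCODE 29 overlaps PHGDH, so no loss of its reads to a neighbour is visible there, but the treatment of reads that map more than once was not given in the sources used here. PHGDH spans chromosome 1 from 119648411 to 119744226 in GRCh38.

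PSAT1, the next enzyme, had 47.6 and 44.2 CPM in the DMSO libraries. With UNC1999 it had 19.0, 20.2 and 13.7 CPM in replicates 1, 2 and 3. Every UNC1999 library was thus far below both DMSO libraries, and replicate 3 was the lowest. The log2 fold change was -1.38 ± 0.14 (SE), which left 38.4% of the DMSO level. Without UNC1999 replicate 2 it was -1.48, and without replicate 3 it was -1.23. Among 9312 genes whose average log2 CPM was 3 or more, PSAT1 ranked 5 from the bottom; it was 14 from the bottom among all 13075. The gene lies on chromosome 9 from 78297143 to 78330093.

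PSPH, the phosphatase that ends the pathway, had 32.9 and 30.0 CPM in DMSO. In UNC1999 replicates 1, 2 and 3 it had 18.5, 22.1 and 13.7 CPM. Again no UNC1999 library reached the DMSO range, and replicate 3 was the lowest. PSPH fell by 0.79 ± 0.15 (SE) on the log2 scale (edgeR adjusted p = 5.8e-05), and by 0.95 without UNC1999 replicate 2. Its partial copy PSPHP1 held 38 and 25 counts in DMSO and 10, 22 and 18 in UNC1999, and adding those counts to PSPH, a choice made after the data were seen, gave -0.82. The other 13 listed copies of members had at most 2 counts in any library. PSPH lies on chromosome 7 from 56011051 to 56051604.

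The ratio of PSAT1 to PSPH counts within a library needs no scaling between libraries. It was 1.45 and 1.48 in DMSO and 1.02, 0.911 and 1 in UNC1999. All UNC1999 libraries were below both DMSO libraries. Since the family was picked for the fall of PSAT1, the direction of this ratio is a description only. This ratio and the one below were chosen after the values were seen. Also computed was MTHFD2 over MTHFD2L, with 56.8 and 67.4 in DMSO and 67.1, 59.75 and 48.3 in UNC1999. Its groups overlapped. MTHFD1L over MTHFD1 was 0.349 and 0.390 in DMSO and 0.328, 0.318 and 0.342 in UNC1999.

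Neither serine hydroxymethyltransferase was called. SHMT2, the mitochondrial enzyme and the most abundant member, had 569.5 and 541.3 CPM in DMSO. In UNC1999 it had 597.7, 511.4 and 593.3 CPM, so replicates 1 and 3 were above and replicate 2 below the DMSO libraries. The change was 0.03 ± 0.11 on the log2 scale, with an edgeR adjusted p of 0.853. Leaving out UNC1999 replicate 2 gave 0.11, with an edgeR adjusted p of 0.175. The value was below 0 in 4 of 12 alternative analyses. SHMT2 lies on chromosome 12 from 57229327 to 57234935.

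SHMT1, the cytosolic enzyme, had 55.1 and 54.5 CPM in DMSO and 45.4, 49.8 and 47.2 CPM in UNC1999. The groups did not overlap, but the difference of -0.21 ± 0.11 (log2) was not called, with an edgeR adjusted p of 0.163. It passed without UNC1999 replicate 2 (-0.23, edgeR adjusted p = 0.0461). The ratio of SHMT2 to SHMT1 counts was 10.3 and 9.94 in DMSO and 13.2, 10.3 and 12.6 in UNC1999, with replicate 2 inside the DMSO range. SHMT1 lies on chromosome 17 from 18327860 to 18363563.

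The share of SHMT2 in the members' summed CPM was higher in each UNC1999 library. It was 34.2% and 34.0% in DMSO and 45.4%, 36.9% and 45.8% in UNC1999. The sum itself was 1665 and 1592 CPM in DMSO and 1318, 1386 and 1295 CPM in UNC1999. These sums weight long transcripts more than short ones.

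Of the folate enzymes in mitochondria, MTHFD1L and MTHFD2 were called lower, and the order of their falls depended on the offsets described below. MTHFD1L, the formate-releasing enzyme, had 149.99 and 149.1 CPM in DMSO and 88.9, 105.6 and 89.9 CPM in UNC1999. The groups were well apart, with replicate 2 nearest to DMSO. On the log2 scale the difference was -0.66 ± 0.11, with an edgeR adjusted p of 1.52e-05, and -0.73 when UNC1999 replicate 2 was left out. MTHFD1L kept its call in each of 12 alternative analyses. It lies on chromosome 6 from 150865549 to 151101887.

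MTHFD2, the dehydrogenase and cyclohydrolase of dividing cells, had 373.5 and 384.5 CPM in DMSO and 272.8, 338.7 and 269.1 CPM in UNC1999. Replicate 2 lay between the DMSO libraries and the other two UNC1999 libraries. MTHFD2 fell by 0.37 ± 0.11 (SE) on the log2 scale (edgeR adjusted p = 0.00903), and by 0.47 without replicate 2. The call was lost when either DMSO library, UNC1999 replicate 1 or UNC1999 replicate 3 was left out (edgeR adjusted p = 0.0675 to 0.109), and without scaling factors between libraries (edgeR adjusted p = 0.0586). MTHFD2 lies on chromosome 2 from 74198562 to 74217565.

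MTHFD2L, its paralog, was scarce, with 6.58 and 5.71 CPM in DMSO and 4.07, 5.67 and 5.58 CPM in UNC1999. UNC1999 replicates 2 and 3 were just under the lower DMSO library. Its difference of -0.26 ± 0.22 (log2) was not called, with an edgeR adjusted p of 0.366, and was -0.34 without replicate 2. ALDH1L2, which burns the folate-bound unit to carbon dioxide in mitochondria, had 0 and 1 counts in DMSO and 3, 1 and 2 counts in UNC1999, too few for a fold change. MTHFD2L lies on chromosome 4 from 74114174 to 74303099 and ALDH1L2 on chromosome 12 from 105019784 to 105084577.

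MTHFD1, the cytosolic enzyme with all of the folate steps between formate and methylene groups in 1 protein, had 429.4 and 382.3 CPM in DMSO. In UNC1999 it had 270.8, 332.0 and 262.6 CPM. No UNC1999 library reached the lower DMSO library, and replicate 2 was the closest. MTHFD1 fell by 0.49 ± 0.11 (SE) on the log2 scale (edgeR adjusted p = 0.000737), and by 0.59 without replicate 2. Without DMSO replicate 1 the value was -0.41 and the call was lost (edgeR adjusted p = 0.0613). MTHFD1 lies on chromosome 14 from 64388031 to 64463457.

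In 6 members (SHMT1, SHMT2, MTHFD1, MTHFD2, MTHFD2L and ALDH1L2) exons overlap those of a gene on the opposite strand in GENCODE 29. No strand setting was given in the sources used here, so reads there may be lost or shared. The overlapped genes with a row in the table were much lower than their abundant partners, with at most 6 counts for NDUFA4L2 at SHMT2, 95 for SLC4A5 at MTHFD2 and 320 for ZBTB25 at MTHFD1. SMCR8 at SHMT1 was comparable to it, with 281 to 457 counts, and C12orf45 at ALDH1L2 was above it, with 114 to 139 counts. PSAT1, PHGDH, PSPH and MTHFD1L had no such overlap.

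**Figure D2:**
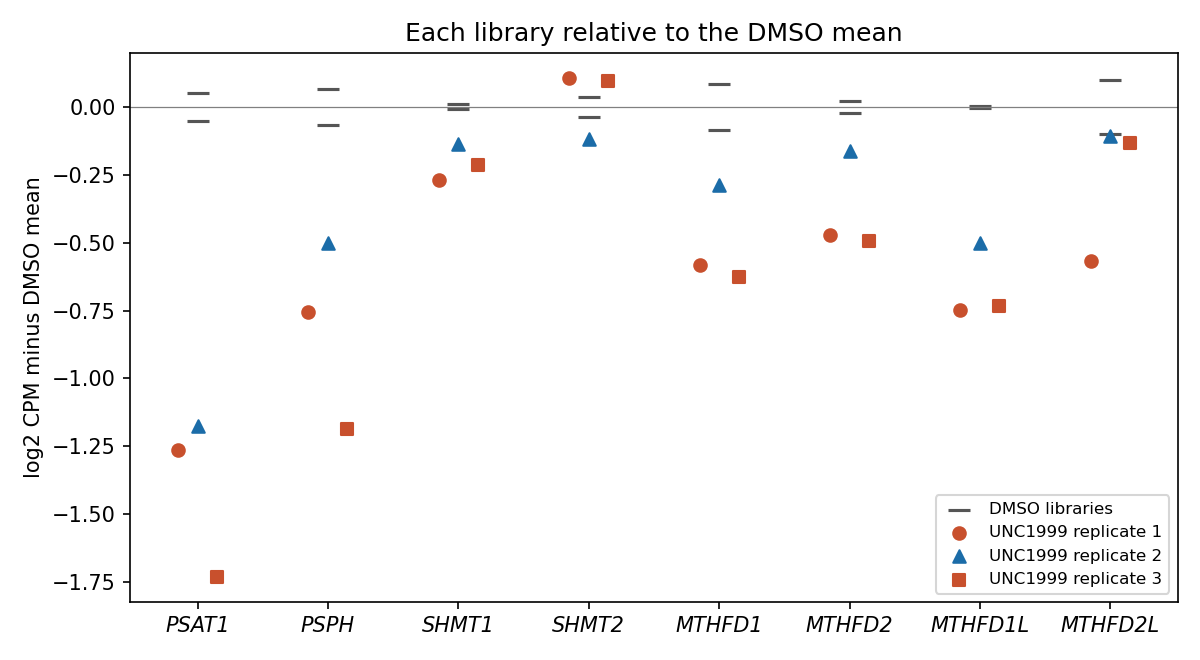
Log2 CPM of each library minus the mean of the 2 DMSO libraries (vertical axis) for the 8 tested genes; dashes are DMSO libraries and symbols the 3 UNC1999 libraries. UNC1999 replicate 2 (triangles) lies nearest to DMSO in 7 of the 8 genes, the exception being SHMT2.

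UNC1999 replicate 2 was the UNC1999 library nearest to the DMSO mean in 7 of the 8 tested members, all but SHMT2. For PSAT1 it was at -1.18 relative to the DMSO mean on the log2 scale, against -1.26 and -1.73 in replicates 1 and 3. For MTHFD2 the values were -0.16 against -0.47 and -0.49. Among all 4603 called genes, replicate 2 was the nearest of the 3 in 52.8%, and its median distance from the DMSO mean was 0.493 log2, compared with 0.567 and 0.580 in replicates 1 and 3. The part of this library in the results was measured only by leaving it out, which made the falls of PSAT1, PSPH, MTHFD1, MTHFD2 and MTHFD1L larger.

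The fold changes of all genes followed the GC content of their transcripts, and the members were spread along that trend. Across 10038 protein-coding genes, medians (log2) were 0.45 in the decile of lowest GC content, 0.21 in the third decile, -0.38 in the sixth and 0.17 in the highest. PSAT1, with 42.3% GC, and MTHFD2, with 41.4%, belong to the third decile, where the middle range (25th to 75th percentile) was -0.12 to 0.49, and both were below that range. MTHFD2L (36.0% GC) was likewise below the middle range of its decile, 0.16 to 0.71. PSPH (49.8%) and MTHFD1L (51.9%) were below the middle range of the sixth decile, -0.54 to -0.20. MTHFD1 (48.6%, -0.49) was inside it and SHMT1 (51.5%, -0.21) just inside its upper end. SHMT2 (55.2%, 0.03) was above that of the seventh decile, -0.44 to -0.08.

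**Figure D3:**
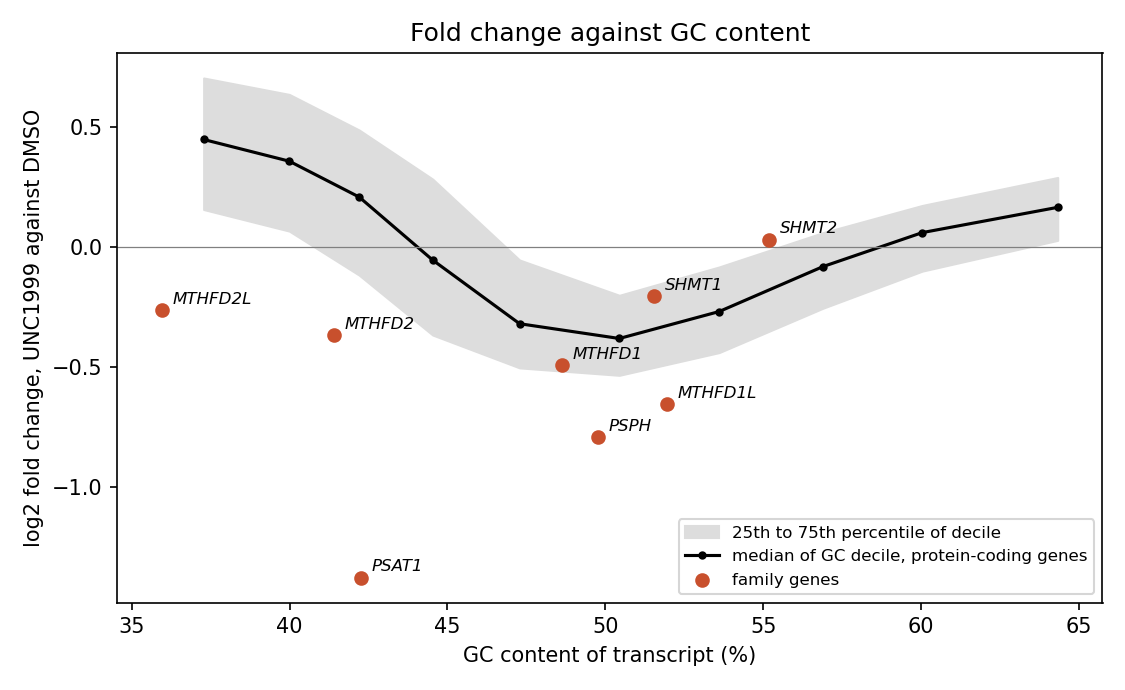
Log2 fold change of UNC1999 against DMSO (vertical axis) over transcript GC content in percent (horizontal axis). The black line joins the medians of 10 GC deciles of protein-coding genes, the grey band is their middle range from the 25th to the 75th percentile, and the points are the 8 tested genes. PSAT1 lies far below the band, PSPH, MTHFD1L, MTHFD2 and MTHFD2L lie below it, MTHFD1 and SHMT1 lie inside it and SHMT2 above it.

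When smooth trends in GC content and transcript length were removed by offsets, the calls among the members changed. PSAT1 had a log2 fold change of -1.50 ± 0.11 (SE) in that fit. MTHFD2 fell further, by 0.63 ± 0.07 (SE; edgeR adjusted p = 1.48e-09), and MTHFD2L was called lower (-0.59, edgeR adjusted p = 0.0294). PSPH (-0.42, edgeR adjusted p = 0.00679) and MTHFD1L (-0.35, edgeR adjusted p = 0.000345) stayed lower with smaller values. MTHFD1 lost its call (-0.16, edgeR adjusted p = 0.0639). SHMT2 was called higher (0.25 ± 0.07 SE, edgeR adjusted p = 0.00277), and SHMT1 turned from -0.21 to 0.15 and was not called (edgeR adjusted p = 0.174). Of the 9 members other than PSAT1, 4 were thus lower and 1 higher with offsets, where 18.8% of 11024 genes were called lower and 14.8% higher. Whether the GC trend comes from the cells or from the libraries was not tested.

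**Figure D4:**
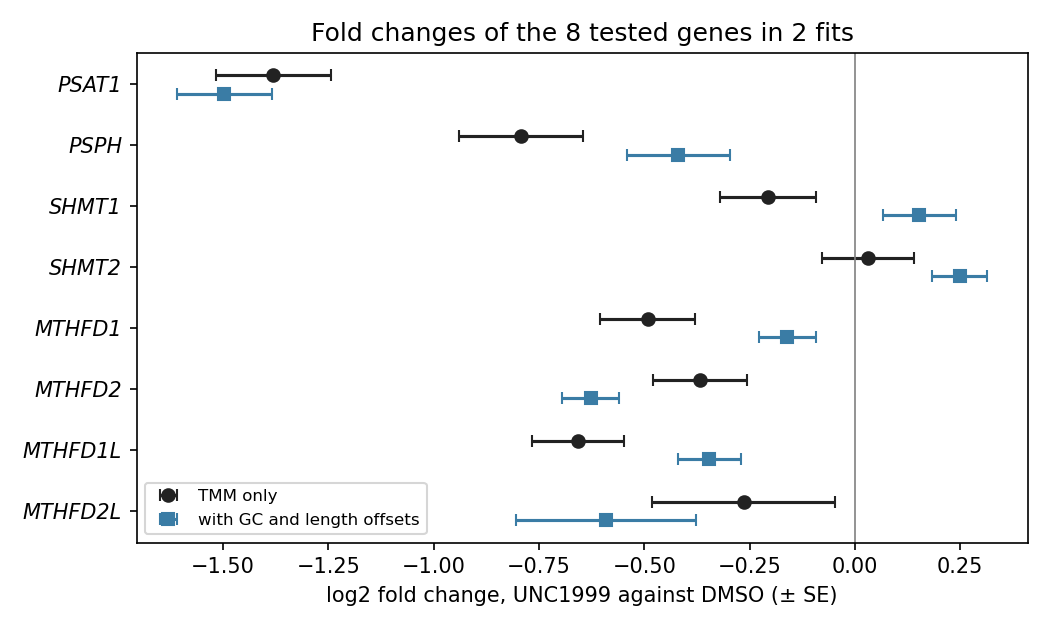
Log2 fold change of UNC1999 against DMSO with its SE (horizontal axis) for the 8 tested genes in the fit scaled by TMM factors alone (circles) and in the fit with GC and length offsets (squares). PSAT1, PSPH, MTHFD1L and MTHFD2 are below 0 in both fits, whereas SHMT1 moves from -0.21 to 0.15 and SHMT2 from 0.03 to 0.25.

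Promoter stretches are shown for PSAT1, which chose the family, and for MTHFD1L and MTHFD1, the only members whose windows held a motif searched for. The window of MTHFD2, also lower with UNC1999, held none and is not shown. ATF4 and MYC are transcription factors known to act on this pathway, and their part in these genes' changes was not tested. Each line gives the 250 bases before the RefSeq start, 5′ to 3′ on the plus strand of GRCh38.p14. Capitals mark TGATGNAA, the composite site of ATF4 with C/EBP proteins, and CACGTG, the E-box bound by MYC with MAX. The positions are chr9:78296875-78297124 for PSAT1, chr6:150866236-150866485 for MTHFD1L and chr14:64388103-64388352 for MTHFD1.
PSAT1: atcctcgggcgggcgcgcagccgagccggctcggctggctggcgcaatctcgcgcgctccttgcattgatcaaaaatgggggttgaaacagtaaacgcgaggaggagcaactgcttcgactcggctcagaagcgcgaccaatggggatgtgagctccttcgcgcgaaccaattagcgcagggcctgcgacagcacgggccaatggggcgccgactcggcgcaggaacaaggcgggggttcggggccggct
MTHFD1L: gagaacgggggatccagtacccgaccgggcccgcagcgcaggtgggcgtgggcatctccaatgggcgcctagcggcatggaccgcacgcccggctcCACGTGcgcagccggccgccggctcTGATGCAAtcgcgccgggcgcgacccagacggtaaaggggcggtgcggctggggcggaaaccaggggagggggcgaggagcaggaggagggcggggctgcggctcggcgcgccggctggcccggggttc
MTHFD1: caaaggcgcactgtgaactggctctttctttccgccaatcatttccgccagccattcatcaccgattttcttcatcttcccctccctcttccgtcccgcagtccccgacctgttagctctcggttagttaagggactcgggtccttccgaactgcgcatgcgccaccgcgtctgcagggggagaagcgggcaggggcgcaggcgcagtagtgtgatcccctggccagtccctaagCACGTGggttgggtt

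RefSeq windows were at hand for 7 members (11 windows), and both strands were searched for TGATGNAA, for CACGTG and for TGACNNNGC, the element bound by NFE2L2; none of these overlapped another in the members. TGATGNAA and CACGTG occurred together only in windows of MTHFD1L, where TGATGCAA ends 121 bases and CACGTG 148 bases before the start shown. The MTHFD1L windows 1 (the one shown) and 3, which overlap, held both, and its windows 2 and 4 held neither. MTHFD1 held CACGTG 9 bases before its start. The windows of PSAT1, PHGDH, SHMT1, MTHFD2 and MTHFD2L held none of the 3 motifs. Of all 35116 windows of the same length, 3.14% held TGATGNAA, 6.34% held CACGTG and 10.9% held TGACNNNGC. A match is a description of the letters and not evidence that a factor binds there.

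By a rule of likeness, the 5 genes nearest to PSAT1 were found among 9311 others above the same expression limit. Likeness was the Euclidean distance over the 5 libraries between log2 CPM values, each taken relative to the gene's DMSO mean. LINC01271, a noncoding RNA gene, was nearest (distance 0.167), followed by HBEGF, a growth factor gene of the EGF family (0.410), LINC01270 (0.460), MIR1244-2 (0.597) and CD101, an immunoglobulin-type surface protein gene (0.614). LINC01271 had 20.6 and 16.9 CPM in DMSO and 7.23, 7.74 and 5.58 CPM in UNC1999, with replicate 3 lowest as in PSAT1. LINC01270 and LINC01271 overlap on opposite strands, and MIR1244-2 has near-identical copies, so their counts are uncertain. None of these 5 belongs to the pathway lists below.

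The genes around the pathway did not move as a block. The median over all 13075 tested genes was -0.01 (log2), and each list below is described by its counts and its median beside that value and the shares given above. The list of regulators, which also held the stress response genes ATF3 and DDIT3, had a median of -0.59. In it 4 of 6 tested were lower and 0 higher. With offsets the median was -0.33, with 3 lower and 1 higher: NFE2L2 was then called higher (0.31 without and 0.47 with offsets) and ATF3 lost its call (-0.57 without and -0.19 with offsets). Both are named after their values were seen. MYC had 179.3 ± 5.23 CPM under DMSO against 87.7 ± 7.40 under UNC1999, a difference of -1.03 ± 0.11 in log2 (-0.98 with offsets). ATF4, which activates serine synthesis genes when amino acids are short, fell by 0.62 (0.47 with offsets) and DDIT3 by 0.84 (0.48 with offsets) on the log2 scale. The histone methyltransferase gene EHMT2, named after its values were seen, was listed at 0 in all 5 libraries and was not tested. Whether its reads were left unassigned in counting was not tested.

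Genes known as ATF4 targets gave 3 lower and 1 higher of 8 tested, with a median of -0.27. With offsets 4 were lower and 0 higher, with TRIB3 (-0.27) and SESN2 (-0.32) newly lower. Both are named after their values were seen. The list held genes of amino acid synthesis and transport and others, among them TRIB3, SESN2, CEBPB and CEBPG. CEBPB, named after its values were seen, was 1 of the 3 lower (-0.48, -0.63 with offsets). GPT2, a mitochondrial alanine aminotransferase, fell by 0.77 (0.66 with offsets), and ALDH18A1, of proline synthesis, by 0.48 (0.14 with offsets, not called). The cystine transporter gene SLC7A11 was higher (0.56 ± 0.18 SE, edgeR adjusted p = 0.0135; 0.01 with offsets, not called), a call that did not survive leaving out DMSO replicate 1 (edgeR adjusted p = 0.181) or UNC1999 replicate 1 (0.0705). SLC7A11 was also not called with the DESeq2 Wald test on all 5 libraries (adjusted p = 0.0716). ASNS, the asparagine synthetase gene, had at most 1 count in any library and had no test. It is named after its values were seen, and whether its reads were left unassigned in counting is likewise unknown.

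Among transporters of serine and glycine, 2 were higher and 1 lower of 9 tested (median -0.02). With offsets 3 were higher and 2 lower, with SLC1A4 (0.27) newly higher and SLC7A5 (-0.35) newly lower. Both are named after their values were seen. The amino acid transporters SLC38A1 (206.9 ± 7.93 to 327.5 ± 11.2 CPM, 0.66 in log2, 0.28 with offsets) and SLC38A2 (47.5 ± 0.437 to 74.7 ± 1.85 CPM, 0.65, 0.24 with offsets) rose. SFXN1, which carries serine into mitochondria, averaged 299.3 ± 20.3 CPM under DMSO against 193.8 ± 21.6 under UNC1999, a difference of -0.63 ± 0.11 in log2 with an edgeR adjusted p of 3.27e-05 (-0.65 with offsets). Of the glycine cleavage system 2 genes were tested, and GLDC, its decarboxylase, was lower (-0.62, -0.32 with offsets). The AMT and GCSH genes of that system, named after their values were seen, had at most 6 counts in any library. Whether reads of AMT or GCSH were left unassigned in counting was not tested.

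Of 13 tested folate uptake, activation and other folate enzyme genes, 3 were lower and 0 higher (median -0.15). The thymidylate synthase gene TYMS averaged 303.4 ± 5.24 CPM under DMSO against 206.5 ± 14.5 under UNC1999, a difference of -0.56 ± 0.11 in log2 with an edgeR adjusted p of 0.0001 (-0.18 with offsets). MTFMT, which puts a formyl group on the mitochondrial initiator tRNA, fell by 0.48 (0.37 with offsets). MTHFSD, a gene related to a folate enzyme, fell by 0.40 (0.33 with offsets). MTHFSD was not called with the DESeq2 Wald test (adjusted p = 0.0842) or without scaling factors (edgeR adjusted p = 0.0881). Both calls depended on single libraries: without DMSO replicate 2 MTFMT had an edgeR adjusted p of 0.0886, and without DMSO replicate 1 MTHFSD had one of 0.195.

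Purine synthesis, the main user of formyl folate, gave 4 lower and 1 higher of 12 tested, with a median of -0.03. With offsets 5 were lower and 1 higher, and the genes called differed. GMPS (-0.44) and PAICS (-0.30) were then newly lower and IMPDH2 (0.19) newly higher, while PRPS1 lost its call (-0.11). These are named after their values were seen. The enzymes that take the formyl unit, ATIC (-0.58, -0.21 with offsets) and GART (-0.51, -0.32 with offsets), were both lower, whereas PPAT, which opens the pathway, was higher (0.54, 0.17 with offsets, not called). In the methionine cycle 2 were lower and 1 higher of 9 tested (median -0.15). The methionine synthase gene MTR, which takes the methyl group from folate, averaged 35.1 ± 3.56 CPM under DMSO against 61.0 ± 2.31 under UNC1999, higher by 0.80 ± 0.12 in log2 with an edgeR adjusted p of 3.52e-06 (0.67 with offsets). AHCYL1 fell by 0.62 (0.40 with offsets), and the methionine adenosyltransferase gene MAT2A had -0.34 (-0.19 with offsets), a call lost when any library other than UNC1999 replicate 2 was left out (edgeR adjusted p = 0.0997 to 0.161).

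Of the genes whose enzymes use serine, 2 were lower and 1 higher of 5 tested (median 0.07). PTDSS1, of phosphatidylserine synthesis, fell by 0.53 (0.32 with offsets) and the serine racemase gene SRR by 0.46 (0.29 with offsets), while SPTLC2, of sphingolipid synthesis, rose by 0.59 (0.41 with offsets). Without DMSO replicate 1 the PTDSS1 call was lost (edgeR adjusted p = 0.0548), and without DMSO replicate 2 that of SRR was (0.108). The glycolytic steps on either side of 3-phosphoglycerate, PGK1 (-0.65, -0.78 with offsets) and PGAM1 (-0.49, -0.16 with offsets, not called), were lower, and 0 of the 5 tested were higher (median -0.04).

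**Figure D5:**
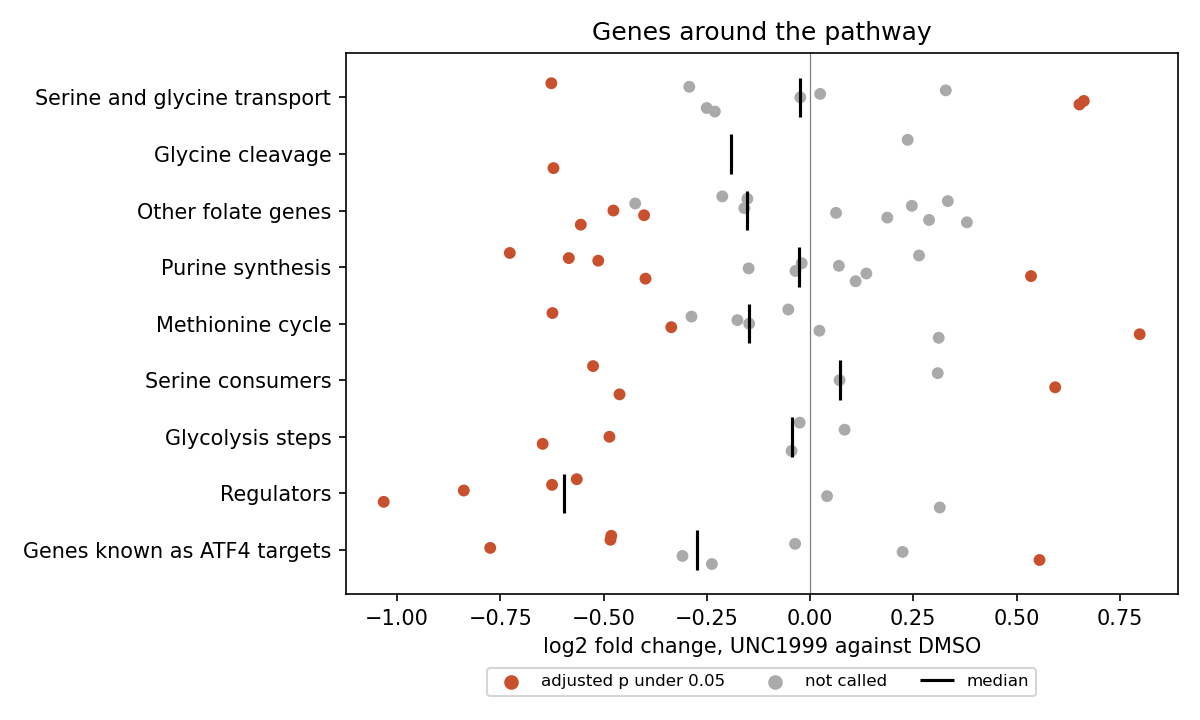
Log2 fold change of UNC1999 against DMSO (horizontal axis) for the tested genes of 9 lists around the pathway, coloured where the edgeR adjusted p is under 0.05, with a black line at each list's median. Most medians lie between -0.27 and 0.07, and the regulators have the lowest, -0.59.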

How the data were processed

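RNA of 5 NK92MI libraries was sequenced. The authors deposited 1 table of whole-number read counts per gene, not normalized. Tools listed without roles, per the submitters' processing notes, were HTSeq 0.13.5, STAR 2.7.9, edgeR 3.34.0 and fastp, with the hg19 build. For strand and multi-mapping, the settings were not given in the sources used here.

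Genes were filtered with filterByExpr, scaled with TMM and compared with edgeR 4.0.16 (R 4.3.3) by the quasi-likelihood F-test on all 5 libraries, p-values adjusted by Benjamini-Hochberg across 13075 genes (threshold 0.05). The procedure was tested on simulated data. GC content, length and GRCh38 coordinates came from GENCODE 29 by symbol (84.3% of tested genes matched) and were not mixed with the hg19 alignment. Offsets were splines in GC content and log2 length. Alternatives were DESeq2 1.42.0, other size factors, no filter, offsets, a replicate block and each library left out. The members and lists were chosen with earlier results of these data known. Named are all members, from each list the 3 called genes of smallest p (where all 3 went one way, the best called gene of the other direction in place of the third; where none was called, the most abundant), the 5 genes most like PSAT1, EZH2 and EZH1, beside the exceptions stated.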

Additional observations from a re-analysis of the deposited data

How the results depend on the processing

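Of 84 alternative values for the 7 tested members other than PSAT1, 65 kept direction and side of the threshold, 9 lost the call, 4 gained one and 6 changed sign without a call. The sign changes were SHMT1 with offsets (0.1529) and with block and offsets (0.1391), and SHMT2 with the replicate block (-0.005949) and in leave-one-out fits (-0.008549 to 0.1113). Over all genes, 2057 were higher and 2546 lower. Without scaling factors these were 2949 and 1742, with the median of all genes shifted by 0.104 and CD3E at 0.00188. Leaving out 1 library gave 1158 to 2862 higher and 1367 to 3030 lower, with 2 to 5 members lower (2 without DMSO replicate 1, 5 without UNC1999 replicate 2) and 0 higher. GC and length offsets made 1 member higher and turned CD3E to 0.242. The replicate block gave 1886 higher and 2136 lower, with 4 members lower. UNC1999 replicate 3 has no DMSO library of its number, so the block fitted it by itself. Its counts thus hardly entered these fold changes. PSAT1 had -1.228 with the block and -1.227 without UNC1999 replicate 3. With block and offsets together there were 1012 higher, 1465 lower, 2 members lower and 1 higher. PSPH then had -0.28 and no call (edgeR adjusted p = 0.118), EZH1 turned to 0.0191 and CD3E to 0.2003. Same-numbered libraries deviated together only weakly from their group means (r = 0.0658 and 0.0381). With 2 DMSO libraries both values rest on the same DMSO difference, and differently numbered pairs were not compared. These values therefore cannot decide whether same-numbered libraries were paired. Apart from fewer libraries where 1 was left out or the block set UNC1999 replicate 3 apart, the cause was not tested. The counts of PHGDH and ALDH1L2 were too low for a change to be detected, and the reason for these low counts was not tested.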
